A study of Mus musculus with 4 samples.

Results

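Chromatin accessibility was examined at 10 genes that make, store and break down triglyceride, namely Lpin1, Lpin2, Lpin3, Dgat1, Dgat2, Plin2, Plin3, Pnpla2, Lipa and Hilpda. They are 10 of the 55450 genes in the GENCODE M21 annotation of mm10, and they were selected on their function and on peak values already seen at Lpin1 and Plin2 in these libraries. Every peak that overlapped a gene body plus 10 kb on each side was taken. After overlapping peaks of the 4 libraries were merged, the windows held 69 of 71243 accessible regions. ATAC-seq, in which the Tn5 transposase places sequencing adapters into open DNA, was performed on mouse bone marrow-derived macrophages (BMDMs) grown with L929 conditioned medium, with 2 biological replicates each of WT and H3.3cKO. The study's general culture time for BMDMs was 6 to 8 days, and its ATAC-seq used cells of a single day within that range. Cells of both genotypes carried floxed H3f3a and H3f3b, the genes for histone H3.3. The cKO cells also carried LysM-Cre on both alleles of the Lyz2 locus, which deletes both genes in myeloid cells, and the WT cells carried no Cre. Loss of H3.3 therefore cannot be told apart from the presence of Cre or the altered Lyz2 locus, and the study found deletion of H3f3b to vary between samples. The marrow came from young adult mice of C57BL/6 background. In such bulk samples, fewer open cells and less accessibility per cell cannot be told apart.

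Triglyceride is built on a glycerol backbone. The lipins are phosphatidate phosphatases that make diacylglycerol, and Lpin1 and Lpin2 are the members best known in macrophages. The DGAT enzymes add the last fatty acid, perilipins coat the lipid droplet that stores the product, and the lipase encoded by Pnpla2 (ATGL) starts its release. HILPDA restrains ATGL, and LIPA digests cholesteryl esters and triglyceride in the lysosome. Lipid-laden macrophages carry abundant PLIN2, which is also used as a marker of droplets.

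The sequences on which the results turn are shown as 201 bases of the forward strand of GRCm38.p6 (mm10, RefSeq), centred on the summit with the lowest p-value in each region. They were chosen among the regions with clear differences at Lpin1, Plin2 and Pnpla2, with the gained region, the lost regions of the higher WT ranks and the start of Hilpda. Sequences without capitals held no match. The window printed as Pnpla2 3′ end lies just beyond the gene, in the promoter of its neighbour Cracr2b. Capitals mark matches to the searched motifs on either strand. These were AP-1 as TGANTCA, PU.1 as GAGGAAGT, C/EBP as TTGCNNAA, the E-box as CACGTG, the hypoxia response element core as ACGTG (which every E-box match contains), RUNX as AACCACA and the sterol response element as TCACNCCAC. The PPAR/RXR direct repeat and the core of the interferon-stimulated response element (ISRE) were searched as well.
Lpin1 intron, lower in cKO (chr12:16588738-16588938): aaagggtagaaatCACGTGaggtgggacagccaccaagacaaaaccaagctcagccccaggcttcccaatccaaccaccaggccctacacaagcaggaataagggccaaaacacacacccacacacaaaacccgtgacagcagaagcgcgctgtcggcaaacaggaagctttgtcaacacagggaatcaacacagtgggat
Lpin1 intron, lost (chr12:16580112-16580312): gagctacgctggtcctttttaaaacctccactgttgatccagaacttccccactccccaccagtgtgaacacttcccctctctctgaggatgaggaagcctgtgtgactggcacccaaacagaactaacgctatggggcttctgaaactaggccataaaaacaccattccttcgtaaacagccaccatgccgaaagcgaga
Lpin1 beyond the 3′ end, higher in cKO (chr12:16532462-16532662): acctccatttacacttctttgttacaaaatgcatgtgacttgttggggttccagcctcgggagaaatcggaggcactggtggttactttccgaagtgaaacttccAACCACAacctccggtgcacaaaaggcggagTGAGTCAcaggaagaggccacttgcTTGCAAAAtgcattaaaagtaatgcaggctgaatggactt
Plin2 upstream, higher in cKO (chr4:86671908-86672108): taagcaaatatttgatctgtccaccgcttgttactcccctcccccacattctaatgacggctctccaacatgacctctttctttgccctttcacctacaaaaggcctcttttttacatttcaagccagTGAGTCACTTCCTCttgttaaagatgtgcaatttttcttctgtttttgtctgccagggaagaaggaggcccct
Plin2 intron, higher in cKO (chr4:86666060-86666260): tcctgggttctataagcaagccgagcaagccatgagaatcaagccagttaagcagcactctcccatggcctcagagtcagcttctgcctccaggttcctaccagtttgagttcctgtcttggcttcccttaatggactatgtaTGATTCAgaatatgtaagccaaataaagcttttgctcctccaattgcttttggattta
Plin2 gene body, gained (chr4:86655553-86655753): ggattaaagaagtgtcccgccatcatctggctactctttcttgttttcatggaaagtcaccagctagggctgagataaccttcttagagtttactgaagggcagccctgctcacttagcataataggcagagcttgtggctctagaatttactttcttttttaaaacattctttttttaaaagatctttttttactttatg
Dgat2 intron, lost (chr7:99159010-99159210): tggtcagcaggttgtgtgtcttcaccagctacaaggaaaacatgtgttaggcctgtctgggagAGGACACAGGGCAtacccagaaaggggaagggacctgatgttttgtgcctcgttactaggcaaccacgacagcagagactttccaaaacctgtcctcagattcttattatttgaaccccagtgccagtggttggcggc
Pnpla2 intron, lost (chr7:141456876-141457076): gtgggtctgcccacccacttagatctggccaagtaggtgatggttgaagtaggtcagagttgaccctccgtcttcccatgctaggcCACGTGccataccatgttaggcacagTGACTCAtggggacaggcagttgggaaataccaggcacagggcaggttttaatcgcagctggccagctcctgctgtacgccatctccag
Pnpla2 3′ end, lower in cKO (chr7:141460745-141460945): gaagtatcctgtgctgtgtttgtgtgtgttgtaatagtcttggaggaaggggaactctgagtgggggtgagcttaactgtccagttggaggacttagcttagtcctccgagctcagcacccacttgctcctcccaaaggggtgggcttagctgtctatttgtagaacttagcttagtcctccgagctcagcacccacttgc
Hilpda start, lower in cKO (chr6:29272486-29272686): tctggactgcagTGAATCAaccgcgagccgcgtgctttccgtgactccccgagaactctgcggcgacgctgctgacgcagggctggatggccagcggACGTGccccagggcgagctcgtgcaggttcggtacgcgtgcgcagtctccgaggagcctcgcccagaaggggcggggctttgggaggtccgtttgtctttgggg

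The lists held 51955 to 64939 peaks and covered 28.4 to 35.2 Mb, with more peaks in replicate 2 than in replicate 1 for WT and for cKO. A peak lay over an annotated start of 7 of 8 macrophage marker genes in each library, with Spi1 the exception in all 4. The starts of 16 T cell, B cell, adipocyte and fibroblast markers (4 each) had no peak in any library. Of 6 neutrophil markers, S100a8 had a peak at its start in all 4 libraries and Camp in all but cKO replicate 1. Read depth is unknown, so a site just under the caller's limit in a library cannot be told apart from a closed site. Ranks are given as the percentile of the peak area among all peaks of the same list. The peak area is the area under the −log10 p curve above the caller's limit, so it grows with both height and width.

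Of the 69 regions, 48 were called in all 4 libraries, 1 was gained in cKO (called in both cKO libraries and in no WT library) and 6 were lost (called in both WT libraries and in no cKO library). As shares these were 69.6%, 1.45% and 8.70%. Over all regions, 62.9% were called in all 4 libraries, 3.72% were gained and 7.25% were lost, so the shares at these genes lay near those of the genome. The other 14 regions were called in 1 or 3 libraries. Among the 48 shared regions, both cKO percentiles lay above both WT percentiles in 16 (33.3%, against 22.2% of all shared regions) and below both in 14 (29.2%, against 35.1%). The median difference, cKO mean minus WT mean, was 0.922 percentile points at these genes and -1.10 over all shared regions. With lists cut to equal length, 21 of 45 shared regions ranked higher and 12 lower, where 15338 and 14912 of all shared regions did so against 9968 and 15746 with whole lists. No test was made of these values, because the genes were selected with them in view. With WT replicate 1 left out, 24 of 49 shared regions lay lower in cKO (49.0%, against 54.5% of all shared regions). Without cKO replicate 2, 26 of 50 did (52.0%, against 56.6% of all). Gained regions numbered 9 without cKO replicate 1 (12.5%, against 9.16% of all regions), of which 5 were pieces of the single gained region of Plin2. They numbered 3 without cKO replicate 2 (4.48%, against 4.43% of all), with 2 such pieces. Without WT replicate 2 they numbered 2 (3.03%, against 7.93% of all). Lost regions numbered 10 without cKO replicate 2 (14.9%, against 13.39% of all).

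The direction differed from gene to gene. Plin2 held the gained region and 4 of the 16 shared regions that ranked higher in cKO, and none that ranked lower. The Pnpla2 window held 3 of the 6 lost regions and 6 of the 14 shared regions that ranked lower. All 9 regions of that window were thus lost or lower by area, but most were centred outside the gene body, near its neighbours. By summit −log10 p 2 of the 6 lower regions overlapped between genotypes, and by area per base 3 did. Lpin1 and Lpin2 had regions of both kinds. Most regions over transcription starts differed little in rank, as described for each gene.

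**Figure D1:**
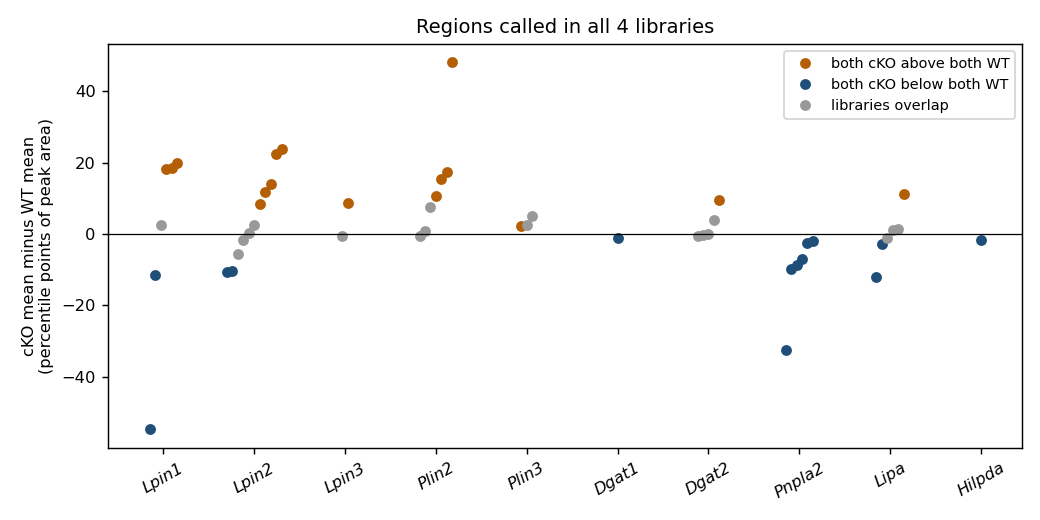
Each point is a region called in all 4 libraries, placed by gene on the horizontal axis, with the cKO mean minus the WT mean of the peak area percentile (percentile points) on the vertical axis. Orange points have both cKO libraries above both WT libraries, blue points both below, and grey points overlap. The range runs from -54.7 at Lpin1 to 48.1 at Plin2, and all 6 Pnpla2 points lie below 0.

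Lpin1 (ENSMUSG00000020593.15, chromosome 12, 16535669 to 16610966, reverse strand), which encodes lipin-1, had 10 regions. The starts of transcripts Lpin1-201, Lpin1-204 and Lpin1-207 lay in the region at 16589351 to 16590046, while those of Lpin1-202 and Lpin1-205, farther upstream, had no peak. That start region ranked at 58.4 and 61.7 in WT (replicates 1 and 2) and at 58.1 and 67.2 in cKO, so the genotypes overlapped. The next region, 653 bp at 16588546 to 16589198 in the intron just downstream, ranked at 68.2 and 76.1 in WT and at 17.2 and 17.6 in cKO. This difference of -54.7 percentile points was the lowest among the 48 shared regions. Its peaks were also narrower in cKO, at 374 and 473 bp against 614 and 653 bp, although the summits of the 4 libraries lay between 16588833 and 16588844. The summit −log10 p was likewise lower in cKO, at 3.70 and 3.68, against WT values of 5.76 and 6.52. The E-box match printed for this region lies near the left edge of its window.

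Further into the same gene, the intronic region at 16583703 to 16584536 ranked at 80.7 and 85.3 in WT and at 72.4 and 70.4 in cKO. The lost region at 16580083 to 16580460 was weaker, at 18.6 and 31.0 in WT. A region at 16569102 to 16569701, called in both WT libraries at 38.5 and 52.9, was found in cKO replicate 2 alone at 6.23. The remaining differences at Lpin1 went the other way. An intronic region at 16591468 to 16591877, upstream of the starts under a peak, ranked at 51.7 and 60.3 in WT and at 73.6 and 75.1 in cKO. Beyond the 3′ end, the region at 16526015 to 16526810 ranked at 62.5 and 72.1 in WT and at 85.7 and 88.7 in cKO, with no overlap. The neighbouring region at 16532065 to 16533794 ranked at 76.8 and 79.0 in WT and at 95.8 and 97.2 in cKO, but its peaks differed in extent. Each WT library had 2 peaks there, of 718 and 575 bp in replicate 1 and of 751 and 395 bp in replicate 2. Each cKO library had a single peak across both, of 1568 and 1730 bp. The stronger WT peaks reached a summit −log10 p of 6.38 and 6.93, and the cKO peaks reached 7.15 and 7.79. With the areas of all peaks in a region summed, the order held but the difference was 6.28 percentile points in place of 18.6. Among the shared regions of Lpin1, the 2 that ranked lower in cKO lay inside the gene, downstream of the starts under a peak, and the 3 that ranked higher lay upstream of them or beyond the 3′ end. By area per base the regions at 16583703 and 16532065 overlapped.

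**Figure D2:**
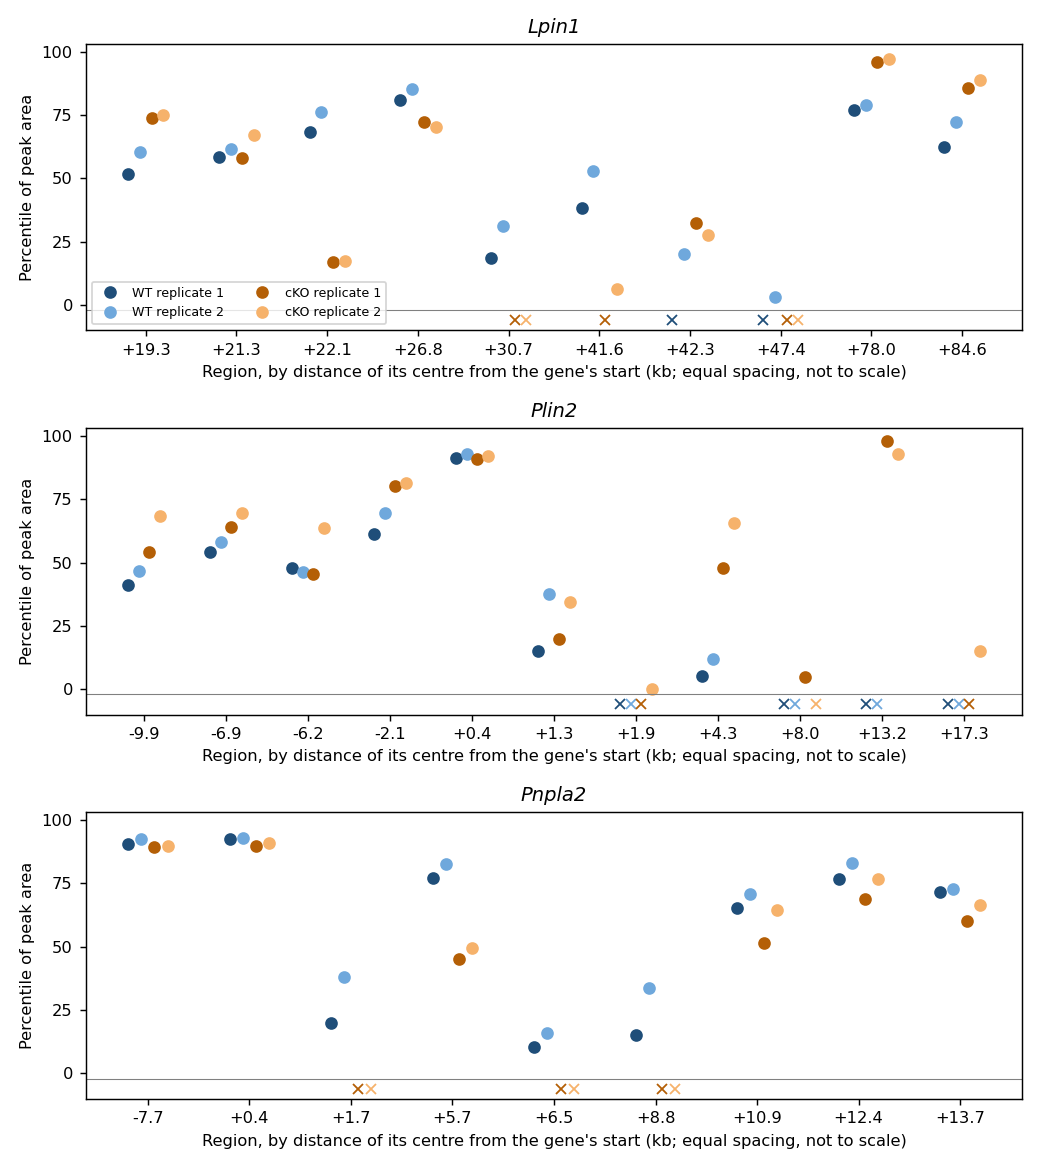
Percentile of the peak area in each library for every region of Lpin1, Plin2 and Pnpla2, ordered by the distance of the region's centre from the gene's annotated start (kb, equally spaced). Crosses under the line mark libraries without a peak. The Lpin1 region at +22.1 kb ranks at 68.2 and 76.1 in WT and at 17.2 and 17.6 in cKO. The Plin2 region at +13.2 kb has cKO peaks only. Every region of the Pnpla2 window is lower or absent in cKO.

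Lpin2 (ENSMUSG00000024052.17, chromosome 17, 71182560 to 71249817, forward strand), whose human counterpart is mutated in the autoinflammatory Majeed syndrome, had 14 regions, of which 11 were shared. The region over the starts of Lpin2-213 and Lpin2-204 (71182922 to 71184076) ranked at 79.6 and 83.4 in WT and at 76.5 and 82.9 in cKO, which overlapped. The region over the outermost start of the gene (71182268 to 71182798) overlapped too, at 49.6 and 57.7 in WT and at 39.1 and 57.1 in cKO. Among the shared regions 5 ranked higher in cKO, and those inside the gene also lay within the overlapping gene Gm26561. The intronic one at 71190625 to 71190940 was weak, with WT percentiles of 8.87 and 0.176 and cKO percentiles of 27.9 and 25.995, and it held matches to the ISRE core and the hypoxia core. Another, at 71214651 to 71215776, ranked at 33.0 and 63.4 in WT and at 64.9 and 79.1 in cKO, and the narrow WT replicate 1 peak of 740 bp met peaks of 1094 to 1126 bp in the other libraries. The region upstream of the gene at 71178578 to 71179342 ranked lower in cKO, at 71.7 and 79.3 against 86.8 and 85.7. The other lower one, at 71221374 to 71221805, ranked at 69.0 and 71.6 in WT and at 51.5 and 68.3 in cKO. Higher ranks in cKO were also found at 71191932 to 71192337 (36.3 and 41.7 in WT, 45.3 and 56.5 in cKO). Beyond the 3′ end they were found at 71250666 to 71251671 (59.6 and 67.5 in WT, 71.7 and 72.2 in cKO) and, within Emilin2, at 71256689 to 71257518 (70.0 and 72.8 in WT, 84.1 and 86.8 in cKO). The lost region at 71196742 to 71196949 was among the weakest of its lists, at 0.529 and 11.0. Lpin3 (ENSMUSG00000027412.12, chromosome 2, 160880670 to 160906002, forward strand) had no peak over any of its annotated starts. Its nearest region, at 160887237 to 160887772 and upstream of the starts of Lpin3-201 and Lpin3-202, ranked at 47.0 and 55.0 in WT and at 56.5 and 63.1 in cKO.

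The acyltransferase genes had few differences. Dgat1 (ENSMUSG00000022555.12, chromosome 15, 76502015 to 76511953, reverse strand) had a single region in its window, over its start at 76511560 to 76512608. It ranked at 94.1 and 94.0 in WT and at 92.5 and 93.4 in cKO, a difference of -1.11 points with no overlap by area, but the genotypes overlapped by summit −log10 p and by area per base. Dgat2 (ENSMUSG00000030747.5, chromosome 7, 99153658 to 99182719, reverse strand) had 7 regions. Its start region (99182517 to 99183124) ranked higher in cKO, unlike the start regions of the other members, at 65.3 and 68.5 against 58.3 and 56.2 in WT. The 4 other shared regions overlapped between genotypes. The lost region of Dgat2, at 99158972 to 99159432 in an intron and the edge of exon 5, ranked at 26.6 and 41.3 in WT. It held a match to the PPAR/RXR direct repeat, which was found in 0.306% of all regions and in no other region of the 10 genes.

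Plin2 (ENSMUSG00000028494.12, chromosome 4, 86648386 to 86670060, reverse strand), which encodes the perilipin that coats most macrophage droplets, had 11 regions. Its start region at 86669059 to 86670326 ranked at 91.3 and 92.7 in WT and at 90.7 and 92.2 in cKO, so the rank overlapped. The summit within it differed in position, for it lay 637 and 636 bp inside the gene in WT and 11 and 9 bp upstream of the start in cKO. When windows around summits were merged in place of whole peaks, this start region gave a lost window and a gained window. Upstream of the gene, the region centred 2091 bp from the start (86671782 to 86672519) ranked at 61.4 and 69.4 in WT and at 80.1 and 81.3 in cKO. All 4 summits of that region lay within 1 bp of each other, 1947 or 1948 bp upstream, and the printed window holds overlapping AP-1 and PU.1 matches. The region centred 6885 bp upstream ranked at 54.1 and 58.3 in WT and at 64.0 and 69.7 in cKO. The farthest, centred 9914 bp upstream, ranked at 41.1 and 46.5 in WT and at 54.1 and 68.3 in cKO. Only the region centred 6227 bp upstream overlapped among these 4, at 47.8 and 46.3 in WT and at 45.4 and 63.6 in cKO.

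Inside Plin2 the extent of the peaks differed more than their height. The intronic region at 86665087 to 86666484 ranked at 5.04 and 11.9 by area in WT and at 47.8 and 65.4 in cKO, a difference of 48.1 points and the highest among the 48 shared regions. Its summits lay 3892 to 3904 bp from the start in all 4 libraries, and its width was 254 and 236 bp in WT but 809 and 1320 bp in cKO. By summit −log10 p it overlapped, at 11.6 and 16.6 in WT and at 15.6 and 33.9 in cKO. By area per base the order was turned, at 10.8 and 21.3 in WT and at 5.17 and 3.95 in cKO.

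The gained region of Plin2 spanned 6696 bp, from 86653558 to 86660253, and covered exons 7 and 8 and most of exon 6 of transcript Plin2-201. No WT peak lay in it. The cKO lists covered it differently. Replicate 1 had 2 peaks, of 5311 bp at percentile 98.1 and of 711 bp at 25.4, and replicate 2 had 5 peaks of 482 to 3478 bp at percentiles 14.7 to 92.6. Only 2 of the 2653 gained regions were as wide or wider, this one included, and the median gained region was 309 bp wide. That rank is a description only, since Plin2 was selected with its peak values in view. Its height was modest: no peak in it exceeded percentile 36.7 of the summit −log10 p or percentile 29.7 of the area per base. The medians of those maxima over all gained regions were 24.5 and 30.04. The 201 bases at the printed summit held none of the searched motifs, and 37.8% of them were G or C. Another peak of cKO replicate 2 in the region, with its summit at 86657609, had the same summit −log10 p of 4.38. The rest of the region was not searched. A high area percentile here went with a long, low peak.

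**Figure D3:**
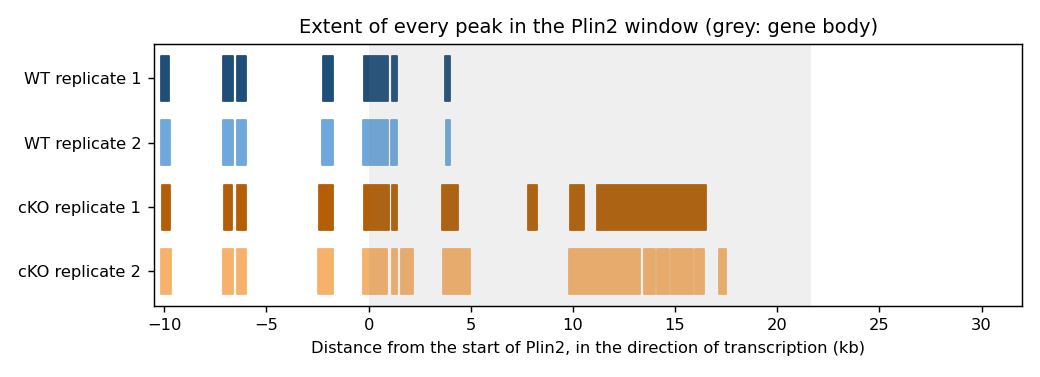
Extent of every Plin2 peak in each library, in kb from the start of the gene along the direction of transcription, with the gene body in grey. Bars match at the start and upstream in the 4 libraries, whereas cKO bars are wider near +4 kb and fill most of the stretch from about 10 to 16.5 kb, where WT has no bar.

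**Figure D4:**
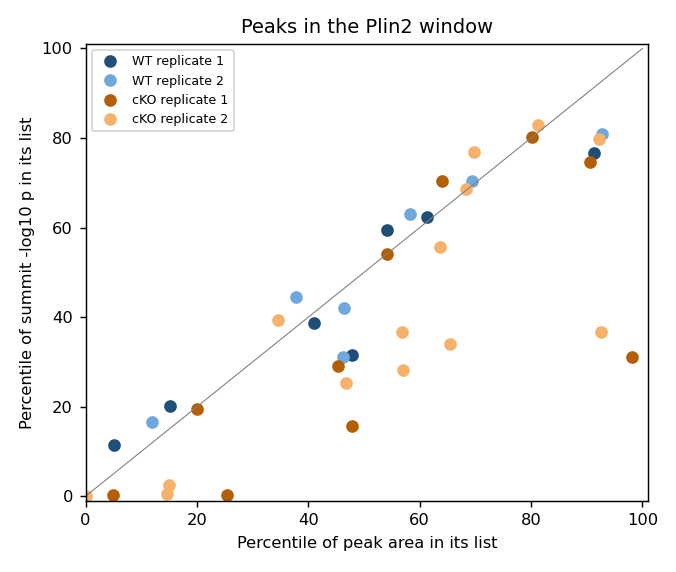
Each point is a peak of the Plin2 window, with the percentile of its area on the horizontal axis and that of its summit −log10 p on the vertical axis, both within its own list, and the line marks equal ranks. The widest cKO peaks lie far under the line, at 98.1 against 31.1 in replicate 1 and at 92.6 against 36.7 in replicate 2.

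Peak-covered length put Plin2 apart from the other 9 genes. In its window 3358 and 3515 bp lay under peaks in WT and 10580 and 11820 bp in cKO, 3.26 times as much by the means. Of 15133 protein-coding genes with peaks in all 4 libraries, 35 had a ratio at least as high, Plin2 included, and the median ratio was 0.929. Peak values at Plin2 were known when the genes were selected, so this rank is a description and no support. Plin3 was the other member whose window had more in both cKO libraries (2835 and 3112 bp in WT, 3382 and 4220 bp in cKO), against 14.2% of 16367 protein-coding genes with a peak. Part of this length lay over the start of the neighbour Ticam1, where peaks were 838 and 845 bp wide in WT and 1146 and 1183 bp in cKO. A further 742 bp came from a region called in cKO replicate 2 alone. Pnpla2 (6203 and 6397 bp in WT, 4239 and 4712 bp in cKO) and Dgat2 (2713 and 2992 bp in WT, 2417 and 2376 bp in cKO) had less in both, as did 38.4% of those genes. The remaining 6 genes overlapped.

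**Figure D5:**
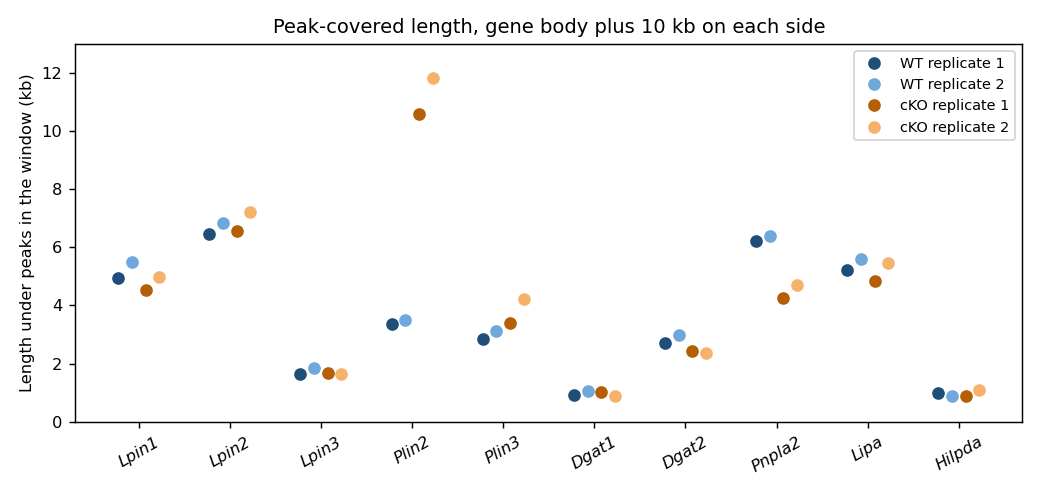
Length under peaks (kb) in the window of each gene, 1 point for each library, with WT in blue and cKO in orange. Plin2 stands at 3358 and 3515 bp in WT and 10580 and 11820 bp in cKO, Pnpla2 is the gene with the largest deficit in cKO, and most other genes overlap or nearly so.

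Plin3 (ENSMUSG00000024197.10, chromosome 17, 56277476 to 56292873, reverse strand), a perilipin found on small and nascent droplets, had 4 regions. Its start region (56290023 to 56291693) ranked at 84.7 and 95.5 in WT and at 94.6 and 95.6 in cKO. The low value came from WT replicate 1, whose signal was split into 2 peaks where the other libraries had 1. With areas summed by region the genotypes still overlapped. A region of 742 bp at 56288976 to 56289717 was called in cKO replicate 2 alone, at 21.7.

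Pnpla2 (ENSMUSG00000025509.15, chromosome 7, 141455198 to 141460743, forward strand), the gene for ATGL, lies close to Rplp2, Cracr2b and Cd151, so its window also held starts of those genes. Its own start region (141454853 to 141456321) ranked at 92.5 and 93.0 in WT and at 89.8 and 90.8 in cKO, lower without overlap by -2.43 points, although the genotypes overlapped by area per base. The lost region in its intron (141456713 to 141457112) ranked at 19.7 and 38.2 in WT, and its window carried both an AP-1 and an E-box match. The region at 141460601 to 141461207 overlapped the 3′ end of the gene but was centred beyond it, in the promoter of Cracr2b. It ranked at 77.1 and 82.4 in WT and at 45.1 and 49.3 in cKO. This difference of -32.6 points was the lowest outside Lpin1. The peaks differed in extent, at 580 and 548 bp in WT and 359 and 318 bp in cKO. The WT peaks reached over the start of Cracr2b at 141461094, and the cKO peaks ended before it. The summits there lay within 1 bp of each other, just beyond the end of Pnpla2. Their −log10 p reached 6.66 and 7.66 in the WT libraries but 4.60 and 5.13 in the cKO libraries, and no searched motif was found. Further downstream, at Cracr2b and Gm10575, lost regions at 141461450 to 141461897 and 141463840 to 141464133 ranked at 10.4 to 33.6 in WT. The region at 141465769 to 141466514 ranked at 65.2 and 70.7 in WT and at 51.6 and 64.4 in cKO, with a cKO replicate 1 peak of 280 bp against 616 to 731 bp in the others. By area per base the cKO mean there was 11.1 points higher, with overlap.

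Hilpda (ENSMUSG00000043421.8, chromosome 6, 29272488 to 29275446, forward strand), a known target of hypoxia-inducible factors, had 2 regions. The region over both of its starts (29272211 to 29273114) ranked at 87.3 and 87.5 in WT and at 85.3 and 86.4 in cKO. Its window held the hypoxia core, as did 12.5% of all regions, and an AP-1 match. The other region, downstream at 29279101 to 29279304, was weak and called in all but cKO replicate 1. Lipa (ENSMUSG00000024781.16, chromosome 19, 34492318 to 34527474, reverse strand), the lysosomal lipase gene, had 8 regions, with none gained or lost. Its start region (34526177 to 34527740) ranked at 92.5 and 96.0 in WT and at 91.8 and 91.0 in cKO. The intronic region at 34518152 to 34518472 was also lower in cKO, at 2.77 and 11.0 against 21.7 and 16.4, and that at 34500786 to 34501101 was higher, at 54.6 and 58.3 against 39.3 and 51.1.

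Of the 9 genes with a peak over an annotated start, Dgat1, Pnpla2, Lipa and Hilpda ranked lower in cKO without overlap by area, by -1.11 to -2.86 points (Dgat1 and Pnpla2 overlapped by other rankings), Dgat2 ranked higher by 9.60 points, and Lpin1, Lpin2, Plin2 and Plin3 overlapped. Regions of unlike extent, in which the number of peaks differed between the libraries that called it or the widest covered length was over 1.5 times the narrowest, were 13 of 69 at these genes, against 21.1% of all regions. They were 5 at Lpin1, 2 each at Lpin2, Plin2 and Pnpla2, and 1 each at Plin3 and Lipa. The Lipa one, at 34519280 to 34520821, was split into 2 peaks in every library but cKO replicate 2, and its percentiles of 61.0 and 68.9 in WT and 55.7 and 76.2 in cKO overlapped. With areas summed, cKO lay lower there by -14.5 points. The Lpin2 one beyond the 3′ end, at 71259722 to 71260564, was 843 bp wide in WT replicate 2 and 290 to 389 bp in the others, and it overlapped too. At Lpin1, the weak region at 16568451 to 16568821 was called in WT replicate 2 at 20.0 and in both cKO libraries at 32.3 and 27.7.

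Motif matches were set beside the direction of the shared regions. AP-1 matches were found in 10 of the 16 regions that ranked higher in cKO, namely all 4 at Plin2, 3 at Lpin1 and 3 at Lpin2. They were found in 3 of the 14 that ranked lower, at Pnpla2, Lipa and Hilpda. Over the genome, 26.2% of shared regions that ranked higher and 12.6% of those that ranked lower held the motif, as did 16.7% of all regions. E-box matches were found in 6 of 69 regions (4.63% of all regions) and PU.1 matches in 3 of 69 (11.0% of all regions). C/EBP matches were found in 7 of 69 (12.3% of all regions) and RUNX matches in 5 of 69 (8.35% of all regions). The ISRE core was found in 3 of 69 (3.90% of all regions) and the sterol response element in 0 of 69 (0.874% of all regions). These are matches to letters and not evidence of binding.

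Other genes of the pathway were taken from a list of 48, all of which had a region within the same window. Of their 262 regions, 5 were gained (1.91%) and 35 were lost (13.36%), against 3.72% and 7.25% of all regions. Of 161 shared regions, 27 ranked higher in cKO (16.8%) and 54 lower (33.5%), with a median difference of -2.17 points. Among the regulators 11 of 55 regions were lost, of which 6 lay at Rxra, 4 at Pparg and 1 at Ppard. These genes encode nuclear receptors. The lost regions at Pparg ranked between 7.20 and 28.0 in WT. Both lost regions of Scd1, the gene for stearoyl-CoA desaturase, lay at its promoter, at 6.03 and 29.5 and at 10.1 and 21.6 in WT. A lost region at the promoter of Cideb ranked at 2.68 and 13.3. The highest lost region, in an exon of Acsl5, which activates fatty acids, ranked at 46.1 and 48.9. Lost regions were also found at Agpat3, Agpat4, Agpat5, Mogat1, Acsl1, Acsl3, Cidea, Bscl2, Abhd5, Lpl, Lipc, Soat1, Cd36, Fabp5 and Acaca. Gained regions were found at 3 genes. Cd36, the fatty acid scavenger receptor, had 2 gained and 2 lost regions, and 6 of its 11 shared regions ranked higher in cKO. Ppargc1a had 2 gained regions, at 5.57 to 29.4 in cKO, and Nceh1, which hydrolyses cholesteryl esters, had 1 at 39.2 and 46.3.

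The edge of the windows fell between regions close to each other. Just inside, the Plin2 region centred 9914 bp upstream reached over the edge. Just outside, 78 bp beyond the Plin3 window, a shared region ranked at 92.1 and 93.0 in WT and at 82.8 and 94.1 in cKO. Another, 254 bp beyond the Lpin1 window, was called in WT replicate 2 at 18.8 and in both cKO libraries at 30.2 and 45.5.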

How the data were processed

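Paired reads were aligned by the authors to mm10 with Bowtie2 2.5.1, and peaks were called in each library with Genrich at default settings. Read filters, duplicate removal and shifting of read ends were not given in the sources used here. The deposited signal column is the peak area. The deposited −log10 p-value is that of the summit. The deposited score, the area per base limited at its maximum, was not used. Areas depend on depth, so they were ranked within each list. Peaks overlapping by at least 1 bp were merged (Python 3.11.15, pandas 2.3.3, numpy 2.4.6), and regions were classed by their centre (promoter from 1 kb upstream to 100 bp downstream of a start). Calls were checked on made-up peaks with known answers. Groups came from sample titles. Members, lists, motifs and tests were chosen with earlier results of these data known. No p-value is given, since the contrast had served to choose genes. Every member is named, with its start region and each region that was gained, lost, without overlap or of unlike extent, and start regions of neighbours stand in the closing section. Alternatives were a stricter threshold, lists of equal length, summit windows, a narrower window, a call by 50% cover, other rankings and leaving out each library. Intervals could not be given, as depth is unknown.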

Additional observations from a re-analysis of the deposited data

How the results depend on the processing

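Leaving out single libraries gave 1 to 9 gained regions, where 3.88% to 9.16% of all regions were gained. It gave 6 to 10 lost regions, where 7.66% to 14.4% of all were lost. Shared regions higher in cKO numbered 17 to 23, where 23.4% to 41.4% of all shared regions were higher. Lower ones numbered 14 to 26, where 35.9% to 56.6% of all shared regions were lower. Gained regions numbered 9 without cKO replicate 1, with 5 pieces of the single Plin2 region among them, 3 without cKO replicate 2 and 2 without WT replicate 2. Lost regions numbered 10 without cKO replicate 2, and lower regions 24 without WT replicate 1 and 26 without cKO replicate 2, where 54.5% and 56.6% of all shared regions were lower. When each list was limited to its stronger 50% by area, 2 regions were gained (4.35% of member regions, 3.81% of all), 2 lost (4.35%, 7.06% of all) and 9 higher (27.3%, 22.1% of all). Lower ones then numbered 11 (33.3%, 36.5% of all). None of the 6 lost regions was then lost, which the limit fixed in advance, since all their WT percentiles lay under 50. The 2 regions then lost were the strongest lower ones of the Lpin1 and Pnpla2 windows. Lists of equal length gave 2 gained regions (3.23% of member regions, 7.04% of all) and 5 lost (8.06%, 7.304% of all). Summit windows gave 2 gained (2.53%, 4.25% of all) and 8 lost (10.13%, 7.69957% of all). A call by 50% cover gave 2 gained (2.899%, 4.103% of all) and 7 lost (10.14%, 8.35% of all). The Plin2 gained region was among the gained ones each time. Ranking by area per base turned 4 of the 30 differences without overlap: the Lpin2 region at 71250666 (-2.57 points), the Plin2 region at 86665087 (-11.5), the Plin3 window's region at 56276488 (-6.52) and the Pnpla2 window's region at 141465769 (11.1). Ranking by summit −log10 p turned that at 56276488 (-0.241). No sign turned under the other alternatives, but several of them could not turn one. Leaving out a library could not, since both cKO ranks lay beyond both WT ranks in all 30. Summit windows and the narrower window reused the same percentiles. The stricter threshold covered 20 of the 30 differences, and the narrower window 22. The genotypes came to overlap in 8 of the 30 by area per base, 5 of 30 by summit −log10 p, 1 of 27 with lists of equal length (the Hilpda start) and 1 of 30 with areas summed (the Pnpla2 window's region at 141467102). The cause was not tested. No paired analysis was possible because the results come from no test, and the labels do not say that a replicate number marks a shared mouse, litter or day.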

Other observations

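Some regions in the windows lay at the starts of neighbouring genes. In the Plin3 window the region over the start of Ticam1, which encodes the adaptor TRIF of Toll-like receptor signalling (56276488 to 56277708), ranked at 92.1 and 93.0 in WT and at 94.6 and 95.2 in cKO. In the Lpin3 window the region at the start of Zhx3 (160872328 to 160873568) ranked at 93.5 and 94.8 in WT and at 93.0 and 94.2 in cKO, which overlapped. In the Pnpla2 window the region at the start of Rplp2, a ribosomal protein gene (141446966 to 141447935), ranked at 90.7 and 92.3 in WT and at 89.4 and 89.7 in cKO. The region over the start of Cd151, which encodes a tetraspanin (141467102 to 141468093), ranked at 76.8 and 82.9 in WT and at 68.8 and 76.7 in cKO. A further region at Cd151 (141468527 to 141469236) ranked at 71.5 and 72.7 in WT and at 60.1 and 66.4 in cKO. The region at 141460601 to 141461207, in the promoter of Cracr2b, is described with Pnpla2. Starts of Emilin3, Arrdc5, Gm16751, Snora52, Gm10575 and Fam71f2 also lay in the windows.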
